A study of Mus musculus with 14 samples.

Results

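Phagocytic and scavenger genes were examined as a set of 10 genes, *Cd68*, *Mpeg1*, *Cd36*, *Msr1*, *Cd14*, *Mertk*, *Lyz2*, *Gpnmb*, *Lgals3* and *Scarb1*, picked by gene symbol from the 43346 genes of the count table. Each symbol matched a single row. RNA sequencing was performed on flash-frozen brain tissue holding hippocampus and cortex from 14 female mice aged 23 months, of strain C57BL/6;SJL-Tg. The groups were 4 non-transgenic (NTG) littermates that drank vehicle water with 0.1% PEG, 5 APP/PS1 mice, labelled APP/PS1 +/+ and carrying familial mutant human APP and PS1 transgenes, on the same vehicle water, and 5 APP/PS1 mice given CP2, called APP/PS1+CP2 mice here. CP2 is a tricyclic pyrone that partially inhibits mitochondrial complex I, and it was supplied in the 0.1% PEG water at 25 mg/kg/day, starting when the mice were 9 months old. The promoter that drives the transgenes is not given in the sources used here, and NTG mice given CP2 are not part of the data used here, so that an action of CP2 without the transgenes could not be compared. GEO's labels call both vehicle groups non-treated. The mice carry the numbers 7 to 10 (NTG), 16 to 20 (APP/PS1) and 21 to 25 (APP/PS1+CP2), and lists of values below follow that order.

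Phagocytes such as microglia, the resident macrophages of the brain, bind debris, dying cells, lipoproteins and protein aggregates through surface receptors and enclose them in phagosomes, which then fuse with lysosomes. Scavenger receptors take up modified lipoproteins and other polyanionic ligands, and several of them also bind fibrillar amyloid beta. Receptors for dying cells recognise exposed phosphatidylserine, often through a bridging protein. The 10 genes are not all receptors. *Msr1*, *Cd36* and *Scarb1* encode scavenger receptors, *Cd14* and *Mertk* encode receptors for bacterial lipids and for dying cells, *Cd68*, *Mpeg1* and *Gpnmb* encode membrane proteins found mainly in lysosomes or phagosomes, and *Lyz2* and *Lgals3* encode a lysosomal enzyme and a soluble lectin.

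The gene counts of a mouse summed to between 70548781 and 106235625, and the 3 groups overlapped in depth. Values are CPM, counts divided by the library's total and brought to a common scale, with TMM factors, with 1 count worth 0.00918 to 0.0149 CPM, so that a count of 0 would allow up to 0.0446 CPM in the smallest library (3 counts, counting error only). Tests are those of edgeR (quasi-likelihood), made for 2 groups at a time, with p values adjusted by Benjamini and Hochberg's method over all genes tested. APP/PS1 mouse 16 stood apart from the other mice in tissue markers, with a summed level of 9 striatum genes of 2611 CPM against 207 to 394 CPM in the other 13 mice and of 6 thalamus genes of 158 CPM against 320 to 579 CPM. Some of the fold changes and correlations that lean on this mouse are given below with and without it. Markers of neurons (6 genes, 5481 to 7067 CPM) and astrocytes (7 genes, 5293 to 7340 CPM) were present in every mouse, and 15 microglia genes summed to 494 to 509 CPM in NTG, 894 to 1232 CPM in APP/PS1 and 747 to 1103 CPM in APP/PS1+CP2 mice.

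In APP/PS1 against NTG mice, 7 of the 10 genes were higher in APP/PS1 mice with an adjusted p under 0.05 and 0 were lower. Among all 16417 genes tested, 4.34% were called higher and 1.34% lower. The 7 genes, *Cd68*, *Mpeg1*, *Msr1*, *Cd14*, *Lyz2*, *Gpnmb* and *Lgals3*, also had no overlap between the groups, with every APP/PS1 mouse above every NTG mouse, which held for 6.15% of all genes tested. The other 3 genes were *Cd36*, *Mertk* and *Scarb1*. The median log2 fold change of the 10 genes was 1.83, beside a median of -0.004 over all genes tested. *Msr1*, *Cd36* and *Lgals3* passed the filter on low values only through the APP/PS1 mice, because 4, 1 and 1 of the NTG mice did not exceed 1 CPM, so the counts and the median include genes whose selection favoured a higher value in APP/PS1 mice. Of the 7 genes that exceeded 1 CPM in every mouse, 5 were called. The per-mouse plot of the 10 genes shows the 14 values of each.

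**Figure D1:**
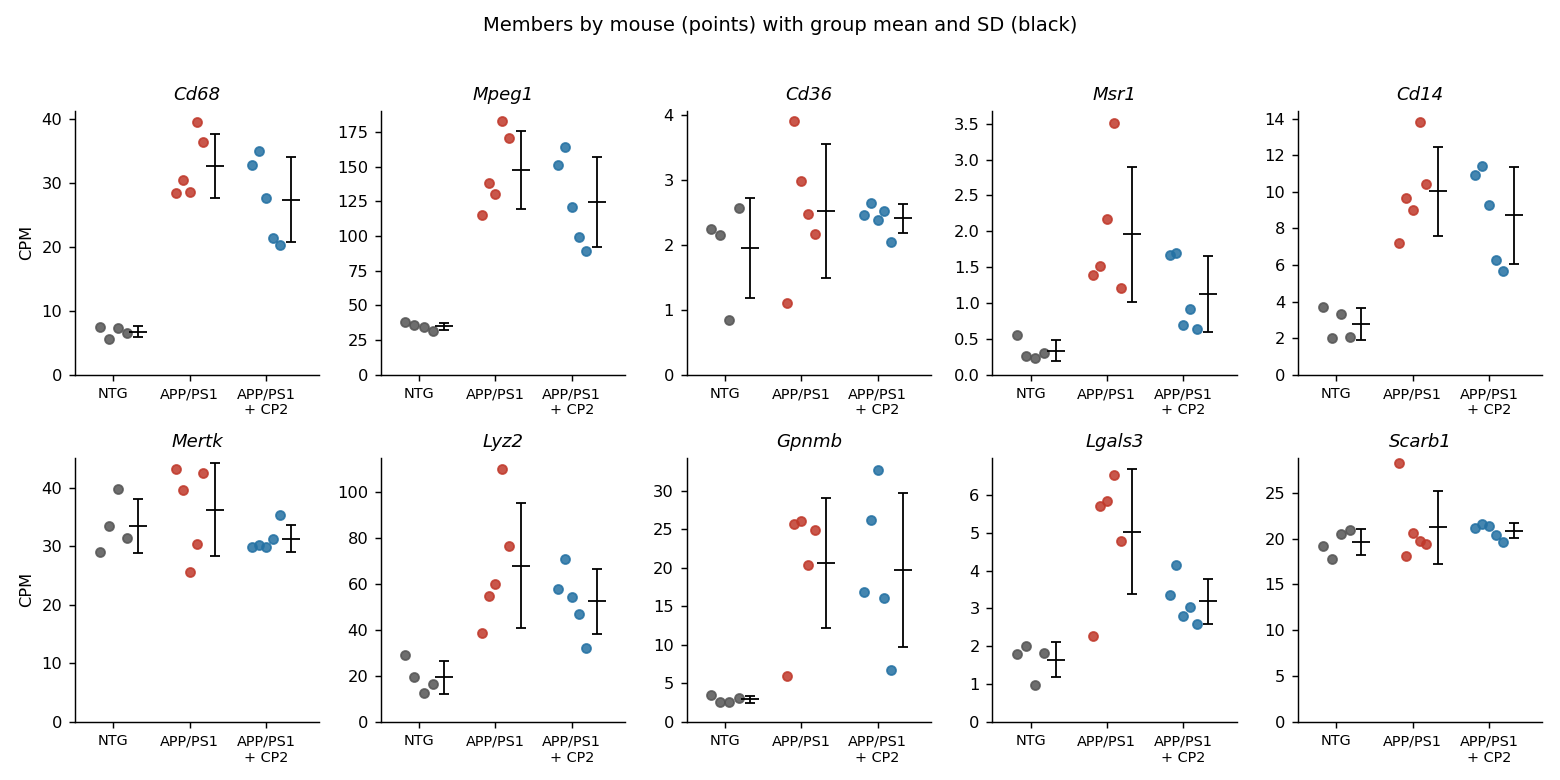
CPM (vertical axis, from 0, scaled per panel) of each of the 10 genes in every mouse, grouped as NTG (n = 4), APP/PS1 (n = 5) and APP/PS1+CP2 (n = 5), points in order of mouse number; the black mark and bars are the group mean and SD. NTG mice lie below both APP/PS1 groups for *Cd68*, *Mpeg1*, *Msr1*, *Cd14*, *Lyz2*, *Gpnmb* and *Lgals3*, while the 3 groups overlap for *Cd36*, *Mertk* and *Scarb1*.

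Among the scavenger receptors, *Msr1* (chr8:39581700-39642678, mm10), the class A receptor of macrophages, was the least abundant of the 10 genes per length and rose in APP/PS1 mice. Its values were 0.555, 0.253, 0.225 and 0.308 CPM in NTG mice, 1.38, 1.52, 2.17, 3.51 and 1.21 CPM in APP/PS1 mice, and 1.67, 1.70, 0.685, 0.914 and 0.631 CPM in APP/PS1+CP2 mice. NTG mice were the lowest 4 of the 14, and APP/PS1 mouse 19 was the highest. The NTG libraries held 17 to 49 reads of this gene and the APP/PS1 libraries 109 to 279. Between APP/PS1 and NTG mice the log2 fold change was 2.52 (SE 0.39, edgeR adjusted p = 0.00408, n = 5 and 4), a 5.75-fold higher level.

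*Cd36* (chr5:17781690-17888959), a class B scavenger receptor that carries fatty acids and binds oxidised lipoprotein, did not pass the test. It measured 2.2, 2.14, 0.839 and 2.57 CPM in NTG, 1.11, 3.91, 2.98, 2.47 and 2.16 CPM in APP/PS1 and 2.46, 2.64, 2.38, 2.52 and 2.04 CPM in APP/PS1+CP2 mice. The groups overlapped, the lowest values being those of NTG mouse 9 and APP/PS1 mouse 16. The log2 fold change was 0.37 with a 95% interval from -0.47 to 1.21 (SE 0.38, edgeR adjusted p = 0.671), an interval that includes 0, and it was 0.56 (SE 0.31, adjusted p = 0.339) without mouse 16. *Scarb1* (chr5:125277087-125341094), the class B receptor for high-density lipoprotein that endothelium and other non-phagocytic cells also make, had 19.2, 17.8, 20.6 and 21 CPM in NTG, 28.3, 18.1, 20.6, 19.8 and 19.4 CPM in APP/PS1 and 21.2, 21.6, 21.4, 20.4 and 19.6 CPM in APP/PS1+CP2 mice. Apart from the striatum-rich mouse 16, all mice lay between 17.8 and 21.6 CPM. Its log2 fold change was 0.11 (95% interval -0.16 to 0.39, SE 0.12, edgeR adjusted p = 0.695), and -0.01 (SE 0.07) without mouse 16.

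*Cd14* (chr18:36725074-36726736), a surface protein without a cytoplasmic part that passes lipopolysaccharide to the Tlr4 and Ly96 complex, rose in APP/PS1 mice. NTG mice had 3.73, 1.98, 3.29 and 2.04 CPM, APP/PS1 mice 7.18, 9.67, 9.04, 13.8 and 10.4 CPM, and APP/PS1+CP2 mice 10.9, 11.4, 9.31, 6.26 and 5.66 CPM. All 10 APP/PS1 mice, treated or not, were above the 4 NTG mice. Against NTG mice the log2 fold change in APP/PS1 mice was 1.86 (SE 0.24, edgeR adjusted p = 0.00158). Its signalling partner *Tlr4* was also called, at 4.04 ± 0.654 CPM in APP/PS1 and 2.46 ± 0.523 CPM in NTG mice (SD, n = 5 and 4, log2 fold change 0.71, SE 0.17, edgeR adjusted p = 0.0412), although the groups overlapped. *Ly96*, the lipid-binding subunit of that complex, stayed under 1 CPM in all mice and was not tested, with 0.491 ± 0.0678 CPM in APP/PS1 and 0.424 ± 0.0761 CPM in NTG mice.

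*Mertk* (chr2:128698956-128802894), a receptor tyrosine kinase for dying cells coated with Gas6 or Pros1, did not pass the test. NTG mice had 28.9, 33.4, 39.8 and 31.4 CPM, APP/PS1 mice 43.1, 39.6, 25.5, 30.4 and 42.5 CPM, and APP/PS1+CP2 mice 29.8, 30.2, 29.8, 31.2 and 35.2 CPM. The 3 groups overlapped, and the vehicle-treated APP/PS1 group held both the highest and the lowest value. Its log2 fold change in APP/PS1 against NTG mice was 0.12 (95% interval -0.24 to 0.48, SE 0.16, edgeR adjusted p = 0.762). The related receptor *Axl* was called, at 85.0 ± 14.7 CPM in APP/PS1 and 60.1 ± 2.74 CPM in NTG mice (SD, log2 fold change 0.50, SE 0.12, edgeR adjusted p = 0.0324), and a difference between the responses of *Mertk* and *Axl* was not tested. *Mrc1*, the mannose receptor that marks macrophages at the brain's borders, had 6.33 ± 1.08 CPM in APP/PS1 and 5.67 ± 0.994 CPM in NTG mice (log2 fold change 0.16, SE 0.16, edgeR adjusted p = 0.652).

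*Cd68* (chr11:69664213-69666153), a heavily glycosylated protein of lysosomal membranes that is widely used to mark phagocytic microglia, separated the genotypes. Its values were 7.5, 5.55, 7.25 and 6.50 CPM in NTG, 28.5, 30.4, 28.5, 39.6 and 36.4 CPM in APP/PS1 and 32.9, 35.0, 27.7, 21.4 and 20.2 CPM in APP/PS1+CP2 mice. The lowest APP/PS1 mouse of either group was at 20.2 CPM and the highest NTG mouse at 7.5 CPM. The log2 fold change of APP/PS1 against NTG mice was 2.28 (95% interval 1.99 to 2.58, SE 0.13, edgeR adjusted p = 4.99e-05), rank 3 by p among the 16417 genes. *Mpeg1* (chr19:12460779-12465284), which encodes perforin-2, a pore-forming protein of the phagosome that damages engulfed bacteria, had 37.9, 35.6, 34.4 and 31.2 CPM in NTG, 115.5, 138.4, 130.6, 182.7 and 170.8 CPM in APP/PS1 and 151.6, 163.9, 120.7, 99.1 and 89.0 CPM in APP/PS1+CP2 mice. As for *Cd68*, mice 19 and 20 were the highest of the vehicle-treated and mice 21 and 22 of the CP2-treated mice. The *Mpeg1* log2 fold change was 2.09 (95% interval 1.78 to 2.39, SE 0.14, edgeR adjusted p = 8.53e-05), rank 6 by p.

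*Gpnmb* (chr6:49036518-49058182), a transmembrane glycoprotein of lysosomes and phagosomes, had the largest fold change of the 10 genes. NTG mice had 3.52, 2.54, 2.59 and 3.08 CPM, APP/PS1 mice 5.99, 25.7, 26.0, 20.3 and 24.9 CPM, and APP/PS1+CP2 mice 16.9, 26.2, 32.7, 16.1 and 6.74 CPM. Each APP/PS1 group had 1 mouse near the NTG range, mouse 16 and mouse 25, and the other 8 APP/PS1 mice lay between 16.1 and 32.7 CPM. The log2 fold change of APP/PS1 against NTG mice was 2.81 (SE 0.39, edgeR adjusted p = 0.002), and it was 3.04 without mouse 16.

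*Lyz2* (chr10:117277334-117282274), the lysozyme of macrophages, which cuts bacterial cell walls, rose as well. The 4 NTG mice had 29.1, 19.5, 12.4 and 16.3 CPM, the 5 APP/PS1 mice 38.4, 54.7, 60.0, 109.7 and 76.4 CPM, and the 5 APP/PS1+CP2 mice 57.6, 70.8, 54.1, 46.8 and 32.0 CPM. The highest NTG mouse, at 29.1 CPM, was close to the lowest CP2-treated mouse, at 32.0 CPM, and mouse 19 stood highest. Its log2 fold change in APP/PS1 against NTG mice was 1.81 (SE 0.33, edgeR adjusted p = 0.00921). The neighbouring copy *Lyz1* was counted at 7 to 18 reads per NTG mouse, 34 to 131 per APP/PS1 mouse and 21 to 61 per APP/PS1+CP2 mouse, too few for the filter. In the GENCODE M21 transcripts 1.81% of the 101-base stretches of *Lyz2* also occur in *Lyz1*, so that a single read of such a stretch matches both. None of the other 9 genes shared such a stretch with another gene. The second read of a pair and near matches were not considered.

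*Lgals3* (chr14:47367751-47386160), which encodes galectin-3, a lectin that binds beta-galactosides on cell surfaces and on damaged lysosomes, was called with a smaller fold change. Its values were 1.79, 1.99, 0.964 and 1.83 CPM in NTG, 2.28, 5.72, 5.85, 6.53 and 4.79 CPM in APP/PS1 and 3.36, 4.14, 2.81, 3.03 and 2.60 CPM in APP/PS1+CP2 mice. Mouse 16 was the lowest APP/PS1 mouse and the only one of its group below all CP2-treated mice. In APP/PS1 against NTG mice the log2 fold change was 1.61 (SE 0.31, edgeR adjusted p = 0.0139), and 1.80 (SE 0.21) without mouse 16. Each of the 7 calls held in all 14 alternatives run, which were other scalings, filters and tools and the fits that left out 1 mouse.

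Levels of different genes were compared on the RPKM scale, which the authors corrected for transcript length. In NTG mice *Lyz2* was the most abundant per length (12.3 ± 4.60 RPKM, SD, n = 4), followed by *Mpeg1* (6.44 ± 0.463), *Mertk* (6.17 ± 0.787), *Cd68* (4.28 ± 0.619), *Scarb1* (2.51 ± 0.250), *Cd14* (1.41 ± 0.456), *Lgals3* (0.711 ± 0.201), *Gpnmb* (0.622 ± 0.112), *Cd36* (0.400 ± 0.163) and *Msr1* (0.0676 ± 0.0312). The neighbours *Mpeg1* and *Mertk*, *Lgals3* and *Gpnmb*, and *Gpnmb* and *Cd36* overlapped in their RPKM ranges over the NTG mice. In APP/PS1 mice the RPKM order became *Lyz2* (44.6 ± 17), *Mpeg1* (28.4 ± 4.86), *Cd68* (21.7 ± 2.86), *Mertk* (6.99 ± 1.47), *Cd14* (5.33 ± 1.23), *Gpnmb* (4.55 ± 1.91), *Scarb1* (2.83 ± 0.527), *Lgals3* (2.27 ± 0.766), *Cd36* (0.542 ± 0.236) and *Msr1* (0.410 ± 0.193). Each neighbour in that order overlapped the next in its RPKM range over the APP/PS1 mice, apart from *Cd68* (18.9 to 25.9) with *Mertk* (5.06 to 8.28) and *Lgals3* (1.02 to 2.89) with *Cd36* (0.235 to 0.867). *Cd68* thus stood below *Mertk* in every NTG mouse and above it in every APP/PS1 mouse. APP/PS1+CP2 mice had the same RPKM order of the 10 gene means as APP/PS1 mice, with *Lyz2* at 34.2 ± 9.57 and *Msr1* at 0.233 ± 0.112 RPKM at the ends.

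**Figure D2:**
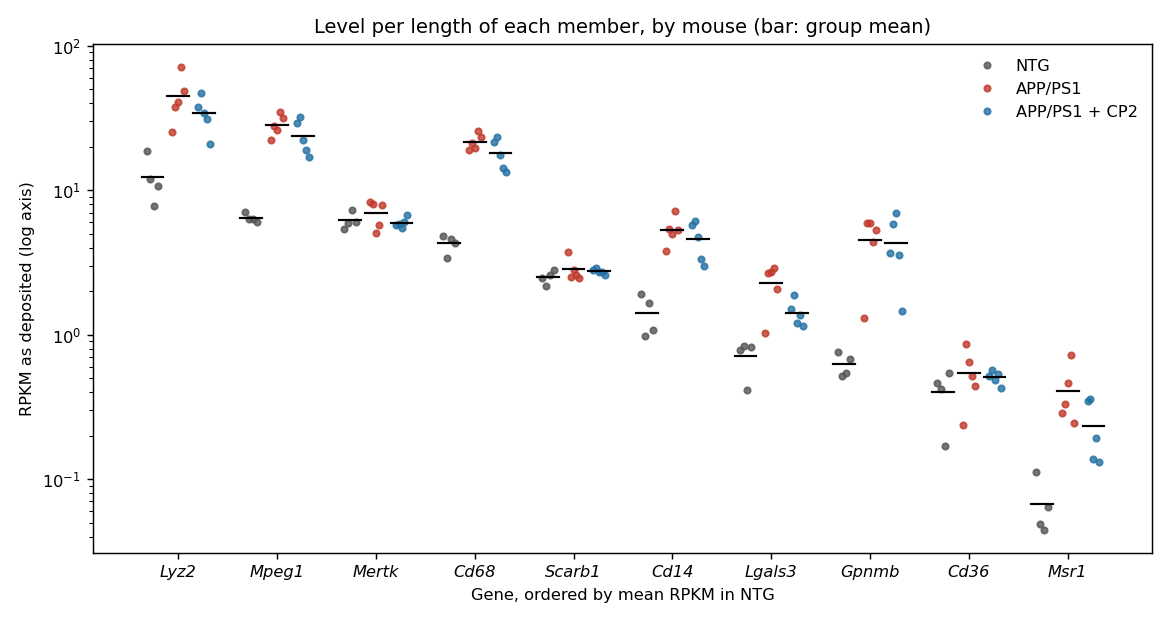
Deposited RPKM of the 10 genes on a log axis, ordered by the NTG mean, with a point for each mouse and a bar at the mean of each group (NTG n = 4, APP/PS1 n = 5, APP/PS1+CP2 n = 5). *Lyz2*, *Mpeg1* and *Cd68* lie at the top in both APP/PS1 groups, and *Msr1* lies lowest in NTG mice at a mean of 0.0676 RPKM.

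APP/PS1+CP2 and APP/PS1 mice were then compared for the same genes. None of the 10 genes reached an adjusted p under 0.05, a call made for 0.00609% of the 16407 genes tested, in either direction, and 0 did so with DESeq2 or limma-voom. At an unadjusted p under 0.05 *Msr1* and *Lgals3* were lower in CP2-treated mice, 2 of 10 genes, beside 3.66% of all genes tested that were lower at this threshold. The groups overlapped for all 10 genes, and 0.616% of all genes tested were lower without overlap. All 10 log2 fold changes were negative, from -0.80 to -0.03 with a median of -0.23, beside a median of -0.006 over all genes tested, but *Scarb1* turned positive with limma-voom (0.07) and without mouse 16 (0.10), *Cd36* without mouse 17 (0.14) and *Gpnmb* without mouse 17, 18, 20, 24 or 25 (0.001 to 0.15). Microglia genes were lower in the same comparison without passing the test, with 15 of 15 log2 fold changes negative (median -0.16), 0 called and 1 with an unadjusted p under 0.05, and their part in the values of the 10 genes was not tested. None of the tissue markers was called between the APP/PS1 groups. The 6 thalamus genes all had positive log2 fold changes in APP/PS1+CP2 against APP/PS1 mice (0.43 to 0.73, median 0.58, 3 with an unadjusted p under 0.05), beside a median of -0.48 in APP/PS1 against NTG mice. The 9 striatum genes all had negative ones (median -1.44, 1 with an unadjusted p under 0.05), beside a median of 1.81 in APP/PS1 against NTG mice, with mouse 16 the striatum-rich one. The 2 genes like ribosomal RNA, *Yam1* and *AY036118*, had a median of 0.47 between the APP/PS1 groups and -0.61 in APP/PS1 against NTG mice. The part of these tissue and RNA differences in the values of the 10 genes was not tested.

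*Lgals3* had 3.18 ± 0.603 CPM in CP2-treated and 5.03 ± 1.66 CPM in APP/PS1 mice (SD, n = 5 each), a log2 fold change of -0.66 (95% interval -1.20 to -0.13, SE 0.24, edgeR adjusted p = 0.744). Without mouse 16 the difference was -0.84 (SE 0.14, edgeR adjusted p = 0.209), since this mouse had the lowest *Lgals3* level of all APP/PS1 mice. *Msr1* had 1.12 ± 0.528 against 1.96 ± 0.941 CPM, a log2 fold change of -0.80 (95% interval -1.60 to -0.005, SE 0.36, edgeR adjusted p = 0.744). The *Msr1* value rested in part on mouse 19, the highest of the vehicle-treated mice, without which the difference was -0.49 (SE 0.32) and neither gene had an unadjusted p under 0.05. *Msr1* also passed the filter here only through the vehicle-treated mice, as 3 of the 5 CP2-treated mice had under 1 CPM.

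The other genes had 95% intervals that included 0. *Cd68* had 27.4 ± 6.62 CPM in CP2-treated and 32.7 ± 5.02 CPM in vehicle-treated mice, a log2 fold change of -0.26 with a 95% interval from -0.61 to 0.09. *Mpeg1* had 124.9 ± 32.4 against 147.6 ± 28.2 CPM, a log2 fold change of -0.24 (95% interval -0.64 to 0.15). In both genes CP2-treated mice 21 and 22 were inside the range of the vehicle-treated mice and mice 24 and 25 below it, while mouse 23 was below it for *Cd68* alone. *Lyz2* (log2 fold change -0.38, 95% interval -0.96 to 0.21), *Cd14* (-0.21, from -0.69 to 0.28) and *Mertk* (-0.22, from -0.52 to 0.08) had intervals that included 0, as did *Cd36* (-0.07, from -0.64 to 0.49) and *Scarb1* (-0.03, from -0.27 to 0.21). *Gpnmb* was the least determined, at -0.06 with a 95% interval from -1.01 to 0.88.

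**Figure D3:**
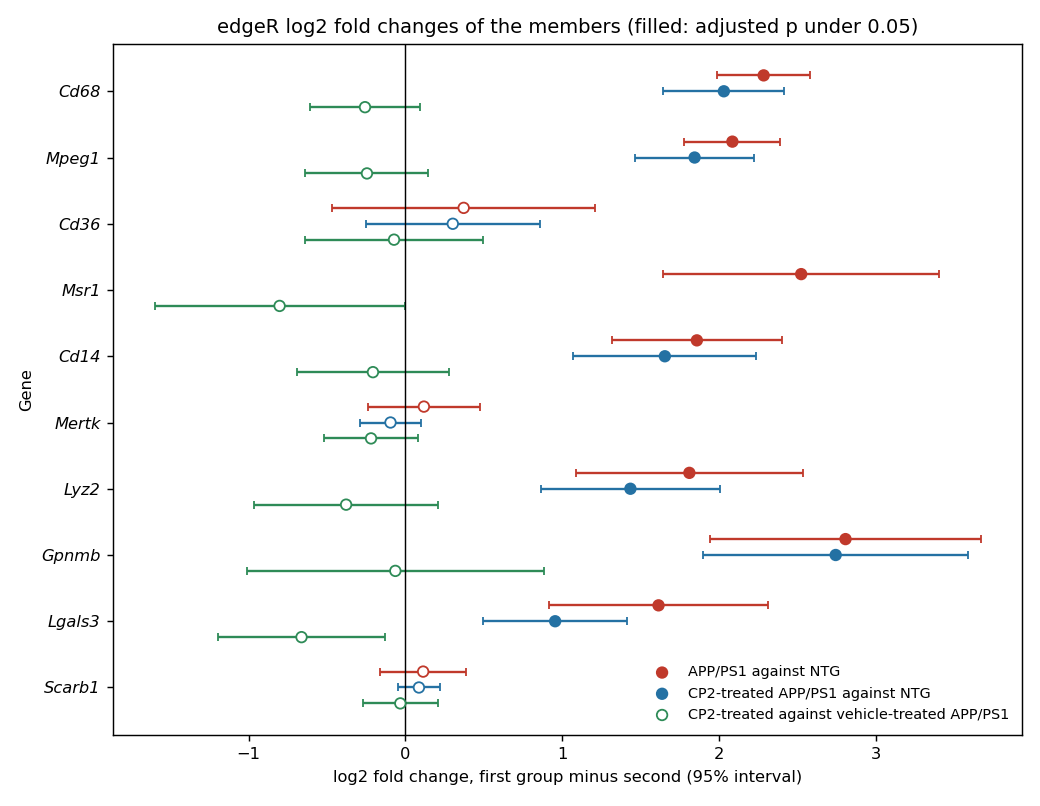
edgeR log2 fold changes (horizontal axis, first group minus second) of the 10 genes with 95% intervals in the 3 comparisons, filled where the adjusted p was under 0.05. The comparisons with NTG mice lie between 0.96 and 2.81 for the genes called, whereas all intervals for APP/PS1+CP2 against APP/PS1 mice except those of *Msr1* and *Lgals3* include 0. *Msr1* has no point for APP/PS1+CP2 against NTG mice because the filter left it out.

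APP/PS1+CP2 mice were also compared with NTG mice, a comparison that shares the NTG mice with the first and the CP2-treated mice with the second. Of the 9 genes tested, 6 were called higher and 0 lower, beside 4.56% and 1.46% of the 16416 genes tested, and the same 6 genes had no overlap, beside 6.43% of all genes. They were *Gpnmb* (log2 fold change 2.74, SE 0.38, edgeR adjusted p = 0.0019), *Cd68* (2.03, SE 0.18, adjusted p = 0.000252), *Mpeg1* (1.84, SE 0.17, adjusted p = 0.000319), *Cd14* (1.65, SE 0.27, adjusted p = 0.00395), *Lyz2* (1.44, SE 0.26, adjusted p = 0.00837) and *Lgals3* (0.96, SE 0.21, adjusted p = 0.022). The *Lgals3* call was lost with all 3 groups in a single fit (0.95, adjusted p = 0.0721) and without CP2-treated mouse 21 (0.94, adjusted p = 0.0541). *Lgals3* and *Cd36* again passed the filter only through the APP/PS1 mice. *Msr1* did not pass it in either group, and without the filter its log2 fold change was 1.72 (SE 0.36, adjusted p = 0.0185 over 33362 genes). *Mertk* (-0.09, 95% interval -0.29 to 0.10), *Scarb1* (0.09, from -0.04 to 0.22) and *Cd36* (0.30, from -0.25 to 0.86) did not pass the test.

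Because the tissue was sequenced in bulk, more cells of a type and more RNA per cell cannot be told apart. Of the 15 microglia genes, 11 were called higher in APP/PS1 than in NTG mice, beside 4.34% of all genes tested, with a median log2 fold change of 0.97 over the list. In APP/PS1+CP2 against NTG mice 11 were called higher, beside 4.56% of all genes tested, with a median of 0.73. The 10 genes were therefore also expressed as a percent of the summed CPM of these 15 genes in the same mouse, as a description without a test. *Cd68* amounted to 1.34% ± 0.182 of the microglia sum in NTG, 3.10% ± 0.103 in APP/PS1 and 2.98% ± 0.221 in APP/PS1+CP2 mice (SD, n = 4, 5 and 5), and *Mpeg1* to 6.94% ± 0.640, 13.9% ± 0.691 and 13.5% ± 1.14. For both genes the NTG mice remained below all APP/PS1 mice on this scale. The spread of *Cd68* among APP/PS1 mice was narrower on this scale, from 2.98% to 3.21%, than in CPM, from 28.5 to 39.6.

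The other genes varied in their behaviour relative to the microglia sum. *Gpnmb* stood at 0.586% ± 0.0954, 1.95% ± 0.841 and 2.14% ± 1.07, with mouse 16 at 0.670% inside the NTG range of 0.508% to 0.713%. *Cd14* stood at 0.551% ± 0.182, 0.945% ± 0.124 and 0.939% ± 0.142, with the highest NTG mouse at 0.754% and the lowest CP2-treated mouse at 0.758%. NTG mice thus stayed below all APP/PS1 mice for *Cd14* too, by a narrow margin. *Lyz2* (3.86%, 6.28% and 5.68%), *Msr1* (0.0670%, 0.185% and 0.118%) and *Lgals3* (0.328%, 0.476% and 0.350%) overlapped between NTG and APP/PS1 mice on this scale. *Mertk* went the other way, from 6.65% ± 0.916 in NTG to 3.51% ± 0.974 in APP/PS1 and 3.54% ± 0.851 in APP/PS1+CP2 mice, without overlap with NTG mice. *Scarb1* did the same, from 3.91% ± 0.262 to 2.08% ± 0.651 and 2.34% ± 0.349, and *Cd36* went from 0.388% ± 0.151 to 0.243% ± 0.112 and 0.269% ± 0.0390, with overlap. *Mertk* and *Scarb1* are known to be made by astrocytes and endothelium too, so a percent of the microglia sum does not give their level in microglia. Of 7 astrocyte markers, 1 was called higher and 1 lower in APP/PS1 against NTG mice (median log2 fold change 0.03). The higher one was *Gfap*, the filament protein of reactive astrocytes (379.1 ± 85.5 to 1864 ± 569.3 CPM, log2 fold change 2.30, SE 0.25, edgeR adjusted p = 0.00065), and the lower one *Slc1a2*, a glutamate transporter (3158 ± 346.3 to 2376 ± 263.4 CPM, -0.41, SE 0.10, adjusted p = 0.0442). Of 6 endothelium markers only the junction protein gene *Pecam1* was called, from 15.5 ± 1.07 to 20.4 ± 1.44 CPM (0.40, SE 0.07, adjusted p = 0.00965), with a median of 0.22 for the list. In APP/PS1+CP2 against NTG mice 2 astrocyte markers were called higher and 1 lower, and 3 endothelium markers higher, and between the APP/PS1 groups 0 of either list were called, with 1 astrocyte marker lower at an unadjusted p under 0.05. The summed level was 5293 to 5730 CPM in NTG, 5338 to 7340 CPM in APP/PS1 and 5523 to 6739 CPM in APP/PS1+CP2 mice for astrocytes, and 158 to 169, 164 to 236 and 180 to 202 CPM for endothelium. The part of these markers in the levels of *Mertk* and *Scarb1* was not tested.

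**Figure D4:**
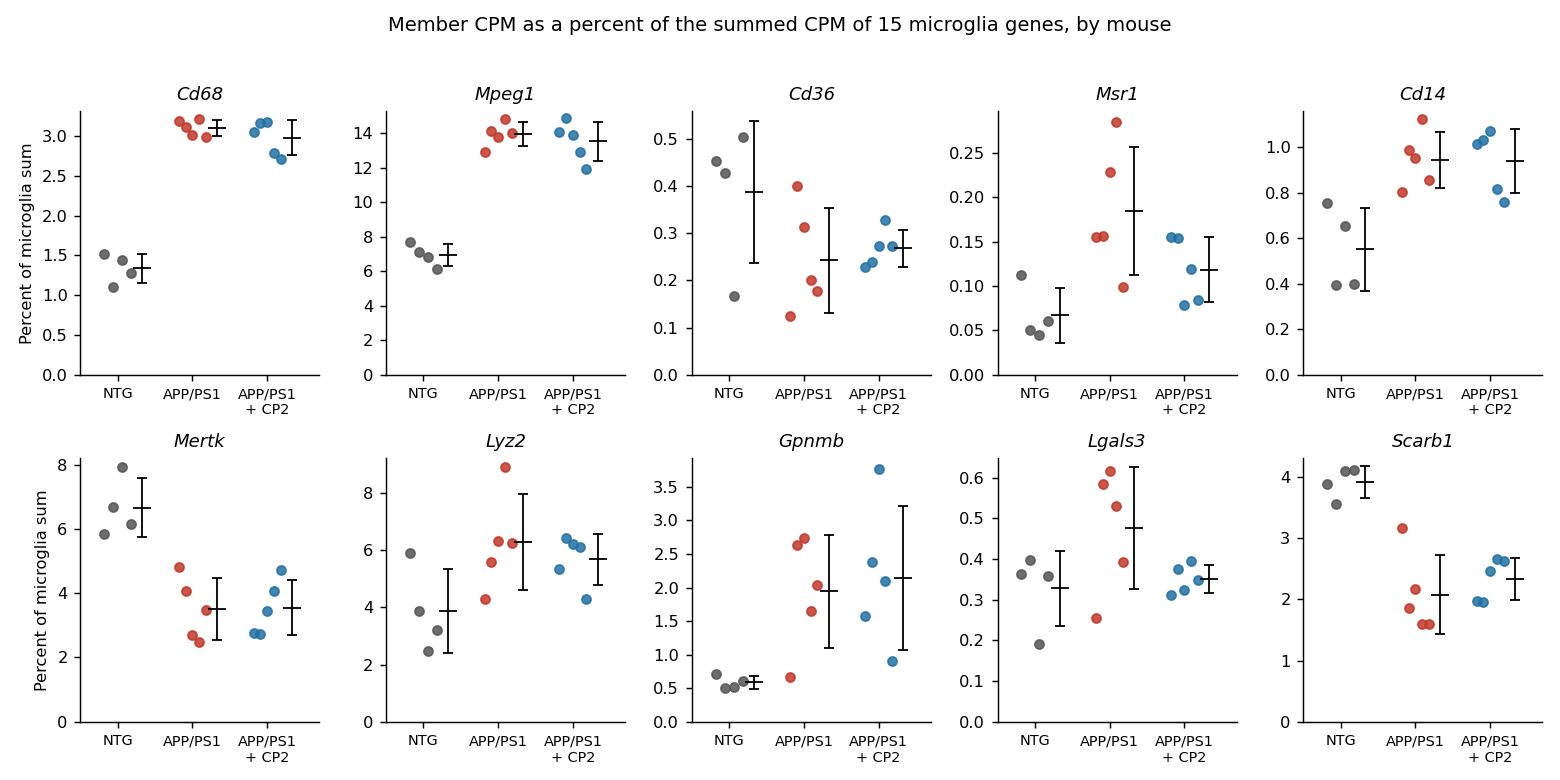
CPM of each of the 10 genes as a percent of the summed CPM of 15 microglia genes in the same mouse (vertical axis, from 0, scaled per panel), with group means and SD in black (NTG n = 4, APP/PS1 n = 5, APP/PS1+CP2 n = 5). *Cd68*, *Mpeg1* and, narrowly, *Cd14* keep NTG mice below both APP/PS1 groups, *Lyz2*, *Msr1* and *Lgals3* overlap, and *Mertk* and *Scarb1* are higher in NTG mice.

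Markers of other cells that can hold these transcripts were also measured. Of 8 genes of border macrophages 5 could be tested and 0 were called in any comparison by edgeR, with 1 at an unadjusted p under 0.05 in each. That gene was higher in both comparisons with NTG mice and lower in APP/PS1+CP2 than in APP/PS1 mice, and it was not the same gene in all 3. The sums of the 8 genes were 27.7 to 34.7 CPM in NTG, 32.3 to 43.9 CPM in APP/PS1 and 32.9 to 42.7 CPM in APP/PS1+CP2 mice. Of 11 genes of blood monocytes and neutrophils only *Ly6c2* passed the filter (log2 fold change in APP/PS1 against NTG mice 0.74, SE 0.20, edgeR adjusted p = 0.0598), and the sum of the 11 genes was 2.90 to 12.9 CPM in NTG, 4.60 to 8.30 CPM in APP/PS1 and 3.53 to 5.52 CPM in APP/PS1+CP2 mice. *Ccr2*, the chemokine receptor that defines infiltrating monocytes, had 0.570 ± 0.257, 0.720 ± 0.200 and 0.714 ± 0.426 CPM in the 3 groups. Of 5 blood genes 2 were called higher in APP/PS1 mice, with sums of 82.5 to 151.4 CPM in NTG, 113.2 to 472.3 CPM in APP/PS1 and 136.0 to 442.5 CPM in APP/PS1+CP2 mice, and the part of blood cells in the values of the 10 genes was not tested.

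A further 70 genes of phagocytosis were described beside the 10, in 5 lists. In APP/PS1 against NTG mice 61 of them were tested, of which 25 were called higher and 1 lower, with a median log2 fold change of 0.25. Among all genes tested in this comparison, 4.34% were called higher and 1.34% lower. These shares also stand beside the counts of the single lists that follow. Genes of these lists could pass the filter on low values through the APP/PS1 mice alone, a selection that favours a higher value there. *Ncf4*, called higher, averaged 0.979 ± 0.239 CPM in NTG mice. How many genes of the lists passed in this way was not counted. The scavenger receptor list held 18 further genes, of which 13 were tested and only *Cxcl16*, a chemokine that as a membrane protein also takes up oxidised lipoprotein, was called (7.57 ± 2.82 against 2.42 ± 0.325 CPM, log2 fold change 1.64, SE 0.25, edgeR adjusted p = 0.00373). The median log2 fold change of that list was 0.11, with values from -0.39 to 1.64.

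Among 12 receptors and bridging proteins for dying cells, 11 were tested, 4 were called higher and 1 lower. *Pros1*, a bridging ligand of Mertk, rose from 13.9 ± 0.845 to 27.0 ± 4.38 CPM (log2 fold change 0.96, SE 0.12, edgeR adjusted p = 0.0011), and *Itgb3*, a subunit of the integrin that binds Mfge8, from 3.86 ± 0.11 to 7.81 ± 1.5 CPM (1.02, SE 0.14, adjusted p = 0.00174). *Mfge8*, the bridging protein that couples phosphatidylserine to integrins and is known to be made mainly by astrocytes in brain, fell from 153.6 ± 13.5 to 105.4 ± 11.4 CPM (-0.54, SE 0.09, adjusted p = 0.00465), without overlap between the groups.

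Of 15 genes of the engulfment machinery, which links receptors to actin, all were tested and 7 were called higher. The leading genes were *Dock2*, an activator of Rac (log2 fold change 1.25, SE 0.13, edgeR adjusted p = 0.000494), and *Rac2*, the Rac GTPase of blood-derived and microglial cells (1.32, SE 0.14, adjusted p = 0.00059), while the median of the list was 0.07. Of 12 genes of the phagosome oxidase and of phagosome maturation 11 were tested and 7 called higher, with a median of 1.33. These were led by *Ncf1*, a cytosolic subunit of the NADPH oxidase (7.11 ± 0.655 to 18.7 ± 3 CPM, 1.39, SE 0.13, adjusted p = 0.000242). Of 13 partners of the 10 genes 11 were tested and 6 called higher, with a median of 0.71, led by the lectin *Lgals9* (4.27 ± 0.102 to 9.75 ± 1.08 CPM, 1.19, SE 0.09, adjusted p = 0.000121) and the galectin-3-binding protein *Lgals3bp* (19.2 ± 1.96 to 61.5 ± 16.2 CPM, 1.68, SE 0.20, adjusted p = 0.0011).

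In APP/PS1+CP2 against APP/PS1 mice 0 of the 60 tested genes of these lists were called by edgeR, DESeq2 or limma-voom. At an unadjusted p under 0.05, 6 were lower and 1 was higher, beside 3.66% and 2.88% of all genes tested, and their median log2 fold change was -0.09. The smallest p values, named after they were seen, were those of *Lgals9* (9.75 ± 1.08 to 7.47 ± 0.838 CPM, -0.39, SE 0.10, edgeR adjusted p = 0.744) and of the single higher gene *Vav3* (11.9 ± 2.27 to 16.2 ± 1.87 CPM, 0.44, SE 0.13, adjusted p = 0.744). In APP/PS1+CP2 against NTG mice 23 of 61 were called higher and 1 lower, beside 4.56% and 1.46% of all genes tested. Here too a gene could pass the filter through the CP2-treated mice alone. The lower gene was again *Mfge8* (153.6 ± 13.5 against 103.9 ± 2.84 CPM, -0.56, SE 0.06, adjusted p = 0.000365), and the higher ones included *Pros1* (0.79, SE 0.10, adjusted p = 0.00124), *Cxcl16* (1.22, SE 0.17, adjusted p = 0.00185), *Vav1*, which activates Rac in blood and microglial cells (1.18, SE 0.13, adjusted p = 0.000528), the oxidase subunits *Cybb* (2.07, SE 0.26, adjusted p = 0.00104) and *Cyba* (1.14, SE 0.12, adjusted p = 0.000497), *Lgals3bp* (1.22, SE 0.10, adjusted p = 0.000198) and *Tlr2*, a receptor for bacterial lipopeptides that works with Cd14 (1.79, SE 0.20, adjusted p = 0.00055).

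The 10 genes were also compared with each other across mice after the group means were removed from the log2 CPM values. Over the 14 mice, which share library and dissection within each mouse, the 45 pairs had Pearson correlations from -0.70 to 0.92 with a median of 0.32, given as a description. *Cd68* and *Cd14* (r = 0.92), *Cd68* and *Mpeg1* (0.91), *Cd36* and *Lgals3* (0.89), *Mpeg1* and *Cd14* (0.85) and *Mpeg1* and *Lyz2* (0.82) were the closest pairs. *Cd36* and *Lgals3*, of which only *Lgals3* was called in APP/PS1 against NTG mice, were both low in NTG mouse 9 and in APP/PS1 mouse 16. Their correlation was 0.80 without mouse 16, a value that still includes mouse 9, and none was computed without mouse 9. A difference between their fold changes was not tested. *Gpnmb* stood at 0.52 with *Cd68*, 0.66 with *Lgals3* and 0.65 with *Lyz2*, an order that rested on mouse 16, as the values without it were 0.52, 0.28 and 0.50. *Mertk* was negative with each of the genes other than *Scarb1*, down to -0.67 with *Msr1* (-0.65 without mouse 16). With *Scarb1* it stood at 0.20, which turned to -0.37 without mouse 16. *Scarb1* reached -0.70 with *Lgals3* and -0.48 with *Gpnmb*, but without mouse 16 these were -0.12 and 0.42, so these negative values rested largely on that mouse. Over the 13 other mice the 45 correlations ran from -0.65 to 0.92 with a median of 0.29. Leaving out mouse 16 here was chosen after seeing the data.

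**Figure D5:**
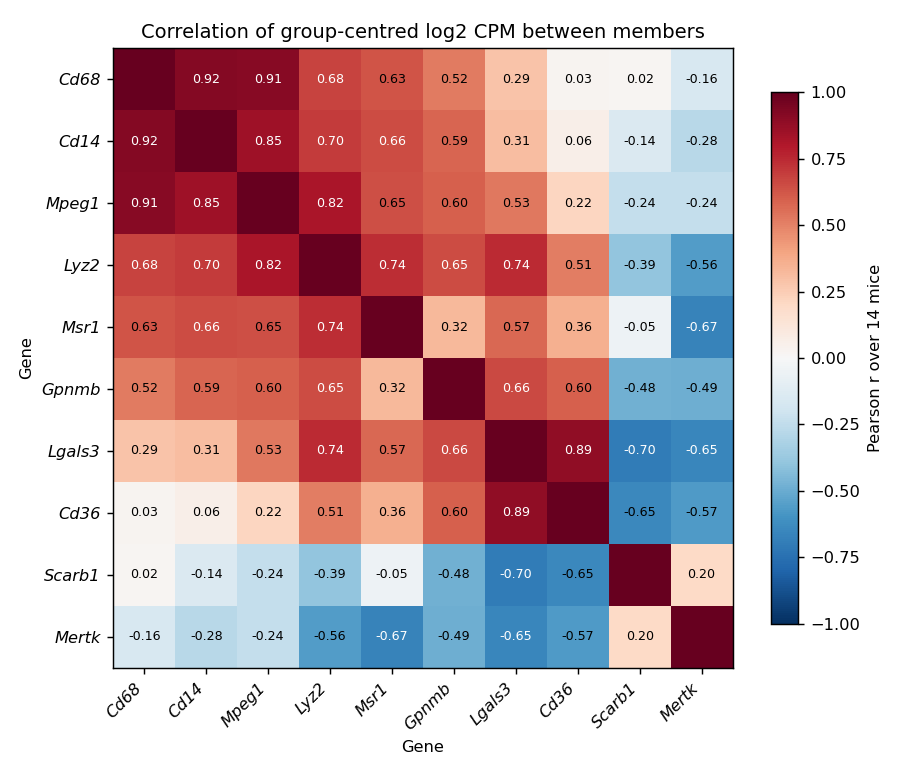
Pearson correlation (colour and number in each cell) between the 10 genes over 14 mice, computed on log2 CPM values after each group's mean was removed. *Cd68*, *Cd14*, *Mpeg1* and *Lyz2* form a block with values from 0.68 to 0.92, and all negative values, down to -0.70, are in the rows or columns of *Scarb1* and *Mertk*.

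Among all 16521 genes tested in at least 1 comparison, the 3 genes most like each of the 10 genes in these group-centred values over 14 mice were found by Pearson correlation. Where 2 mice were left out here, the group means were still those of all mice. The mice left out could therefore still shift the values of the others in their group. For the pairs without mouse 16 above, the group means were taken again, so the 2 kinds of value are not alike. For *Cd68* they were *Spi1*, which encodes the myeloid transcription factor PU.1 (r = 0.95, and 0.95 without the 2 mice farthest from the median of *Cd68*), *Unc93b1* (0.94) and *Cd86* (0.94). For *Mpeg1* they were *Ctsz* (0.98), *Tyrobp* (0.98) and *Lair1* (0.95), for *Cd14* *Cd86* (0.94), *Xlr* (0.94) and *Lpxn* (0.93), for *Lyz2* *Rp2h* (0.96), *Cyba* (0.93) and *Szrd1* (0.93), and for *Msr1* *Plin2*, a coat protein of lipid droplets (0.96), *BC026585* (0.94) and *Efhd1os* (0.94). These values were 0.89 to 0.97 without the 2 farthest mice. For the other genes single mice weighed more. *Gpnmb* was closest to *Tspan3* (0.92, and 0.75 without mice 16 and 25), *Rbm43* (0.91) and *Cd99l2* (0.91), *Lgals3* to *Cd164* (0.95, and 0.86 without mice 16 and 9), *Cpq* (0.95) and *Wls* (0.95), and *Cd36* to *Zfp110* (0.94, and 0.75 without mice 9 and 16), *Sptssb* (0.92) and *Tgoln1* (0.90). *Scarb1* was closest to *Tmem91* (0.97, and 0.86 without mice 16 and 17), *Rasgrp2* (0.94) and the striatal dopamine receptor *Drd2* (0.94, and 0.73), and *Mertk* to *Actn4* (0.94, and 0.91 without mice 18 and 16), *Igfn1* (0.93) and *Numbl* (0.92).

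Because *Cd68* and *Mpeg1* had the smallest p values of the 10 genes and varied together across mice, the 250 bases before their RefSeq start sites are shown, 5′ to 3′ on the gene's strand, from the GRCm38.p6 assembly. Capitals mark the motifs searched on both strands, which were GAGGAAGT and its core GAGGAA (PU.1), CACGTG (the E-box of the TFEB family) and TGANTCA (AP-1).
*Cd68*, chr11:69666171-69666420, minus strand: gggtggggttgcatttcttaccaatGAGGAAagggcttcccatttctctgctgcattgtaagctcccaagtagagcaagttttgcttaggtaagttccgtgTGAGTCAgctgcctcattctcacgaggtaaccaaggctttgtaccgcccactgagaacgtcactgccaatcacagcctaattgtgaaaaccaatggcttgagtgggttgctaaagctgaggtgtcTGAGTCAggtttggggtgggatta
*Mpeg1*, chr19:12460520-12460769, plus strand: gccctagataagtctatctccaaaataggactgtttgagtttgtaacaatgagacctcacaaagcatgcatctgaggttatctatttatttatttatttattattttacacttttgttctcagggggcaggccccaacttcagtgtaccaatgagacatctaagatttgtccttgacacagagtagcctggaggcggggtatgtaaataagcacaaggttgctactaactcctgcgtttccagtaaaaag
The *Cd68* window held GAGGAA at position -225, counted back from the start, and TGANTCA at positions -149 and -24, and the *Mpeg1* window held none of the 4 motifs. RefSeq promoters were found for 7 of the 10 genes, all but *Msr1*, *Cd14* and *Scarb1*. Of these 7, 1 held GAGGAA and 1 held TGANTCA, both times *Cd68*, and 0 held GAGGAAGT or CACGTG. Of 32851 mouse promoter windows of this length, 23.3% held GAGGAA, 6.75% TGANTCA, 2.44% GAGGAAGT and 6.02% CACGTG. A match describes the letters in this window and no more.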

How the data were processed

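RNA was sequenced from 14 brain samples (4 NTG, 5 APP/PS1 and 5 APP/PS1+CP2 mice), prepared with TruSeq RNA v2, a kit that does not mark strand. Per the submitters' processing notes and the study's methods, the authors made reads with bcl2fastq, aligned them to mm10 with TopHat2 in the MAP-RSeq pipeline and assigned them to Ensembl genes by featureCounts of Subread, where a read counted for every gene it overlapped. The strand setting and the versions of aligner and counter are not given in the sources used here. The deposited table holds raw read counts per gene and the authors' RPKM values (scaled by gene length and library), which were used only to compare levels between genes. Total counts per sample were 70548781 to 106235625, and no 2 of the 26 within-group pairs agreed within sampling noise (lowest chi-square per degree of freedom 9.87).

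The 10 genes and all lists were chosen with earlier results of these data known. The software was Python 3.11.15 and R 4.3.3 with DESeq2 1.42.0, edgeR 4.0.16 and limma 3.58.1. Genes entered a comparison when all mice of 1 group or more had a robust CPM over 1. Each pair of groups was fitted alone with TMM factors and edgeR's quasi-likelihood test, with Benjamini-Hochberg adjustment at 0.05; standard errors are those implied by the F statistic, and log2 CPM used a prior count of 2. GEO's labels treat each mouse as a replicate. The study kept several mice per cage and gave CP2 in the drinking water. The cage of each mouse is not given in the sources used here, so shared cages could not be taken into account. On simulated data with 200 changed genes the procedure recovered 99.5% in APP/PS1 against NTG mice (16417 genes, 3.86% of calls false). The changed genes averaged over 2 CPM and had log2 fold changes of 1 or 2 in either direction. Variation followed the trend over all genes, and no simulated mouse stood apart as mouse 16 did. The recovery of smaller changes, or of genes as low as *Msr1*, was not simulated. Alternatives were RLE factors, DESeq2, no filter, all 3 groups in 1 fit, limma-voom with quality weights and each mouse left out. Named genes beside the 10 were the 2 with the smallest p of each list among those called in a comparison, *Lyz1*, *Tlr4*, *Ly96*, *Axl* and *Mrc1*, defining cell type markers and the 3 most correlated genes, and any other gene was named after its values were seen. A gene that this rule names is not reported here. None of the exons of the 10 genes overlapped another gene in GENCODE M21.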

Additional observations from a re-analysis of the deposited data

Results flagged for a closer look

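In 5 of the 30 combinations of gene and group a single mouse stood far from the rest. The rule took its gap to the nearest mouse as a share of the group's range, which chance meets in about 1 of 20 groups. Gap and range were taken on the logarithm of CPM. The levels given beside them are plain CPM, from which the shares come out differently, and the rule was not applied to plain CPM. NTG mouse 9 was low for *Cd36* (0.839 CPM, gap 0.836 of the range) and for *Lgals3* (0.964 CPM, gap 0.851). APP/PS1 mouse 16, which had the high striatum sum, was low for *Gpnmb* (5.99 CPM, gap 0.831) and high for *Scarb1* (28.3 CPM, gap 0.712). CP2-treated mouse 25 was high for *Mertk* (35.2 CPM, gap 0.739).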

How the results depend on the processing

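The number of genes called among the 10 was 7 in APP/PS1 against NTG mice and 0 in APP/PS1+CP2 against APP/PS1 mice under every alternative run. In APP/PS1+CP2 against NTG mice it was 5 to 7. The number with an unadjusted p under 0.05 between the APP/PS1 groups was 2, with 1 by limma-voom and 0 to 3 with a mouse left out (0 without mouse 19, 1 without mouse 23, 24 or 25, 3 without mouse 16 or 22). Directions turned only where log2 fold changes were small. *Scarb1* turned to 0.0681 by limma-voom between the APP/PS1 groups, ranged there from -0.0878 to 0.0972 (without mouse 16) with a mouse left out, and ranged from -0.012 (without mouse 16) to 0.166 in APP/PS1 against NTG mice. Between the APP/PS1 groups with a mouse left out *Cd36* lay between -0.259 (without mouse 16) and 0.138 (without mouse 17) and *Gpnmb* between -0.323 and 0.153, above 0 without mouse 17, 18, 20, 24 or 25. *Mertk* lay between -0.157 and 0.0014 (without mouse 9) in APP/PS1+CP2 against NTG mice with a mouse left out. Without mouse 16 the correlation over mice turned from -0.479 to 0.424 for *Gpnmb* with *Scarb1*, and from 0.196 to -0.374 for *Mertk* with *Scarb1*. The cause was not tested. Over all genes, DESeq2 called 1667, 23 and 1670 genes in the 3 comparisons where edgeR called 932, 1 and 989. Limma-voom called 1563, 1 and 1274. With a mouse left out the first count lay between 578 and 1474, the extremes without mice 9 and 16, and the third between 572 and 1123. No paired analysis was possible because the groups share no replicate numbers. Depth limited *Msr1* most, with 17 to 49 reads per NTG mouse.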
